A study of Mus musculus with 28 samples.

Results

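The SoxC, SoxD and SoxE transcription factors were followed across all samples of the series: Sox4, Sox11 and Sox12 (SoxC), Sox5, Sox6 and Sox13 (SoxD), and Sox8, Sox9 and Sox10 (SoxE). These 9 genes were chosen by name from the 28244 genes of the count table, in which 19 genes carry a Sox symbol, and all 9 passed the filter on low counts in every fit. The table held mouse poly-A RNA sequencing of 28 samples in 11 groups of 2 or 3 replicates. The study asked how neural stem cells (NSCs) grown from peripheral tissues (pNSCs) compare with NSCs grown from brain. It also asked how they compare with neural crest stem cells (NCSCs). The expression of the 9 genes was compared here between pNSCs and the brain NSCs of the same experiment, between pNSCs and the tissue they came from, and between pNSCs, brain NSCs and NCSCs.

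The first experiment comprised Tail-pNSC, Lung-pNSC, Brain-NSC, Tail and Lung, with 2 replicates each. The labels name no reporter for these groups. The study's text describes their pNSCs as grown from sorted cells that express GFP from Nestin regulatory elements (Nes-GFP), from tail at postnatal day 1 to 5 and from lung at 4 to 6 weeks. Tail and Lung were labelled by tissue only, with no age. The second experiment comprised Sox2-GFP lung pNSCs and Sox2-GFP brain NSCs, with 3 replicates each, from mice with GFP knocked into Sox2. The pNSCs were from sorted GFP-positive cells of lung at postnatal day 1 to 5, and the 2 Lung samples served as the tissue here too. The third comprised Wnt1Cre-mTmG Tail pNSCs, Wnt1Cre-mTmG DRG pNSCs and Wnt1Cre-mTmG brain NSCs, with 3 replicates each, from mice in which Wnt1-driven Cre turns neural crest cells and their progeny from Tomato to GFP. These pNSCs came from tail and dorsal root ganglia (DRG) at postnatal day 1 to 5, plated without sorting. By the study's text the lines obtained were Tomato-positive and GFP-negative. The last group was DRG NCSCs, with 3 replicates. These came from adult wild-type DRG by the study's text, although the labels call the cell type NSC. Whether the brain NSCs came from adult or postnatal mice was not given per group. The pNSC lines were grown from single picked clusters, usually clonal, over several passages in medium with EGF and bFGF, so a group may stand for few clones. The labels give the strain as C57BL/6 throughout, whereas the study's methods give wild-type mice as CD1 or as crosses of CD1 and C3H.

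Sox proteins bind DNA through a shared high-mobility-group domain, and the subgroups differ in the rest of the protein. SoxC factors carry an activation domain and are known in neural precursors and differentiating neurons, where they switch on neuronal genes. SoxD factors have no activation or repression domain of their own and pair through a coiled coil. They help Sox9 to switch on cartilage genes and they modulate SoxE factors in glial precursors. SoxE factors mark the glial lineages. Sox9 is needed for gliogenesis and for cartilage, Sox8 accompanies it in glial precursors, and Sox10 is a defining factor of the neural crest, Schwann cells, melanocytes and maturing oligodendrocytes.

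In GRCm38 (GENCODE vM21), all 9 genes are protein coding and lie on 9 different chromosomes. Sox4 (chromosome 13, 28948919 to 28953713) and Sox11 (chromosome 12, 27334264 to 27342574) each consist of 1 exon on the minus strand. Sox12 lies at chromosome 2, 152393611 to 152398063, minus strand. Sox5 (chromosome 6, 143828425 to 144781977) and Sox6 (chromosome 7, 115470872 to 116038796) are long genes on the minus strand with 14 and 16 annotated transcripts. Sox13 is at chromosome 1, 133382303 to 133424377, minus strand. Sox8 lies at chromosome 17, 25565892 to 25570686 on the minus strand. Sox9 lies at chromosome 11, 112782224 to 112787760 on the plus strand, and Sox10 at chromosome 15, 79154908 to 79165240 on the minus strand. Exons of Sox4, Sox5 and Sox8 are overlapped on the opposite strand by Gm26735, Sox5os1 and 2810468N07Rik. Whether counting used the strand is not given in the sources used here, so reads of these pairs may not have been told apart.

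RefSeq promoter windows of 300 bases, from 250 before to 50 after a transcript start (GRCm38.p6), were held for 7 of the 9 genes, in 12 windows. The SoxC windows are shown because the 3 SoxC transcripts were higher in pNSCs than in both tissues in the results that follow, and Sox8 because its transcript had the widest range between NSC lines and Lung. Capitals mark CCAAT on either strand. The words ACAAAG and ACAATG, bound by Sox domains, were searched on both strands too. No match of one motif overlapped the other.
Sox4: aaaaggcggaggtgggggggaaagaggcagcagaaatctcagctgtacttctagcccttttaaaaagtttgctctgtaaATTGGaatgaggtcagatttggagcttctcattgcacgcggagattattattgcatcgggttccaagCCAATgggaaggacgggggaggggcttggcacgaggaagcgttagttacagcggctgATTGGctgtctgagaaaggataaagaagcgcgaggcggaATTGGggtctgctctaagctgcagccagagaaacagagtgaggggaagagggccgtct
Sox11: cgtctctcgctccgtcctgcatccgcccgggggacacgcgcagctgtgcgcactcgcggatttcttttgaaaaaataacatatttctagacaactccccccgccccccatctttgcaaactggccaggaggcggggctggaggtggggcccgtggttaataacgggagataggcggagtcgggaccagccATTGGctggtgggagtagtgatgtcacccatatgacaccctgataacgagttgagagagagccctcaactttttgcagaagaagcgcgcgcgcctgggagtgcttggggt
Sox12: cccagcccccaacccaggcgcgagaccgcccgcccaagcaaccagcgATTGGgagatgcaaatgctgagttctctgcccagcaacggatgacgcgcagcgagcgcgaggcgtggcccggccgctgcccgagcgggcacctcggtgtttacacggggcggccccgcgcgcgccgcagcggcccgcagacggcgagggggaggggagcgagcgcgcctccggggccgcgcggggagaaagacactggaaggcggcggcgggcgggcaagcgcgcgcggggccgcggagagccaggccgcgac
Sox8: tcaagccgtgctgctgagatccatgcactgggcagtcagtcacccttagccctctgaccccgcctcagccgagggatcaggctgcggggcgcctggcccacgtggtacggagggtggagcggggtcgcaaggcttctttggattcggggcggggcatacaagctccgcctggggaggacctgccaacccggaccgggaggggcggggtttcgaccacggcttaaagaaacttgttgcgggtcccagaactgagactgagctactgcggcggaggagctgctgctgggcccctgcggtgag
These windows are on the minus strand at chr13:28953650-28953949, chr12:27342669-27342968, chr2:152397997-152398296 and chr17:25570637-25570936. CCAAT occurred 4 times in the Sox4 window and 1 time each in those of Sox11 and Sox12, was not in that of Sox8, and was found in 6 of the 12 windows, against 37.4% of all 32851 windows of this length. Neither Sox word was in the 4 windows shown. They were found in 6 of the 12 windows, 5 of Sox6 and the 1 of Sox5, against 28.6% of all windows. The Sox12 window held 76.7% G and C, against a median of 52.7% over all windows.

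Library totals were 9808246 to 11431445 counts in Wnt1Cre-mTmG brain NSCs and Wnt1Cre-mTmG DRG pNSCs and 16700710 to 22637031 in the other 9 groups. Wnt1Cre-mTmG Tail pNSCs and DRG NCSCs were thus sequenced deeper than the brain NSCs and DRG pNSCs they were compared with. The part of depth in those comparisons was not tested. Levels are given as cpm: the counts of a gene divided by the library total after TMM scaling, scaled to the usual cpm unit, with 1 scaling over all samples. A count of 3 in a library, taken as the floor, equals 0.131 to 0.294 cpm. Replicates of a group were close, with a chi-square of their counts of 1.09 to 2.82 per gene, except for DRG NCSCs replicate 3, which differed from its 2 partners by 16.8 and 21.0 per gene. Nothing in the labels says that replicates were separate cultures or animals, although the study calls them biological, so the p-values measure the spread between these samples, which may be technical. The NSC markers Sox1, Sox2, Nes and Pax6 were above the floor in every brain NSC and pNSC sample (4 of 4 genes, summed 1084 to 2327 cpm). In DRG NCSCs 2 of the 4 were above the floor, but their sum of 1366 to 1740 cpm lay within that range. In Tail and Lung, Sox1 was at 0. Of the 6 Schwann cell and neural crest markers (Ngfr, Cdh19, Foxd3 and Erbb3 among them), 6 were above the floor in DRG NCSCs (summed 4460 to 4502 cpm) and 3 or 4 in each NSC or pNSC group (summed 4.48 to 141.5 cpm).

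**Figure D1:**
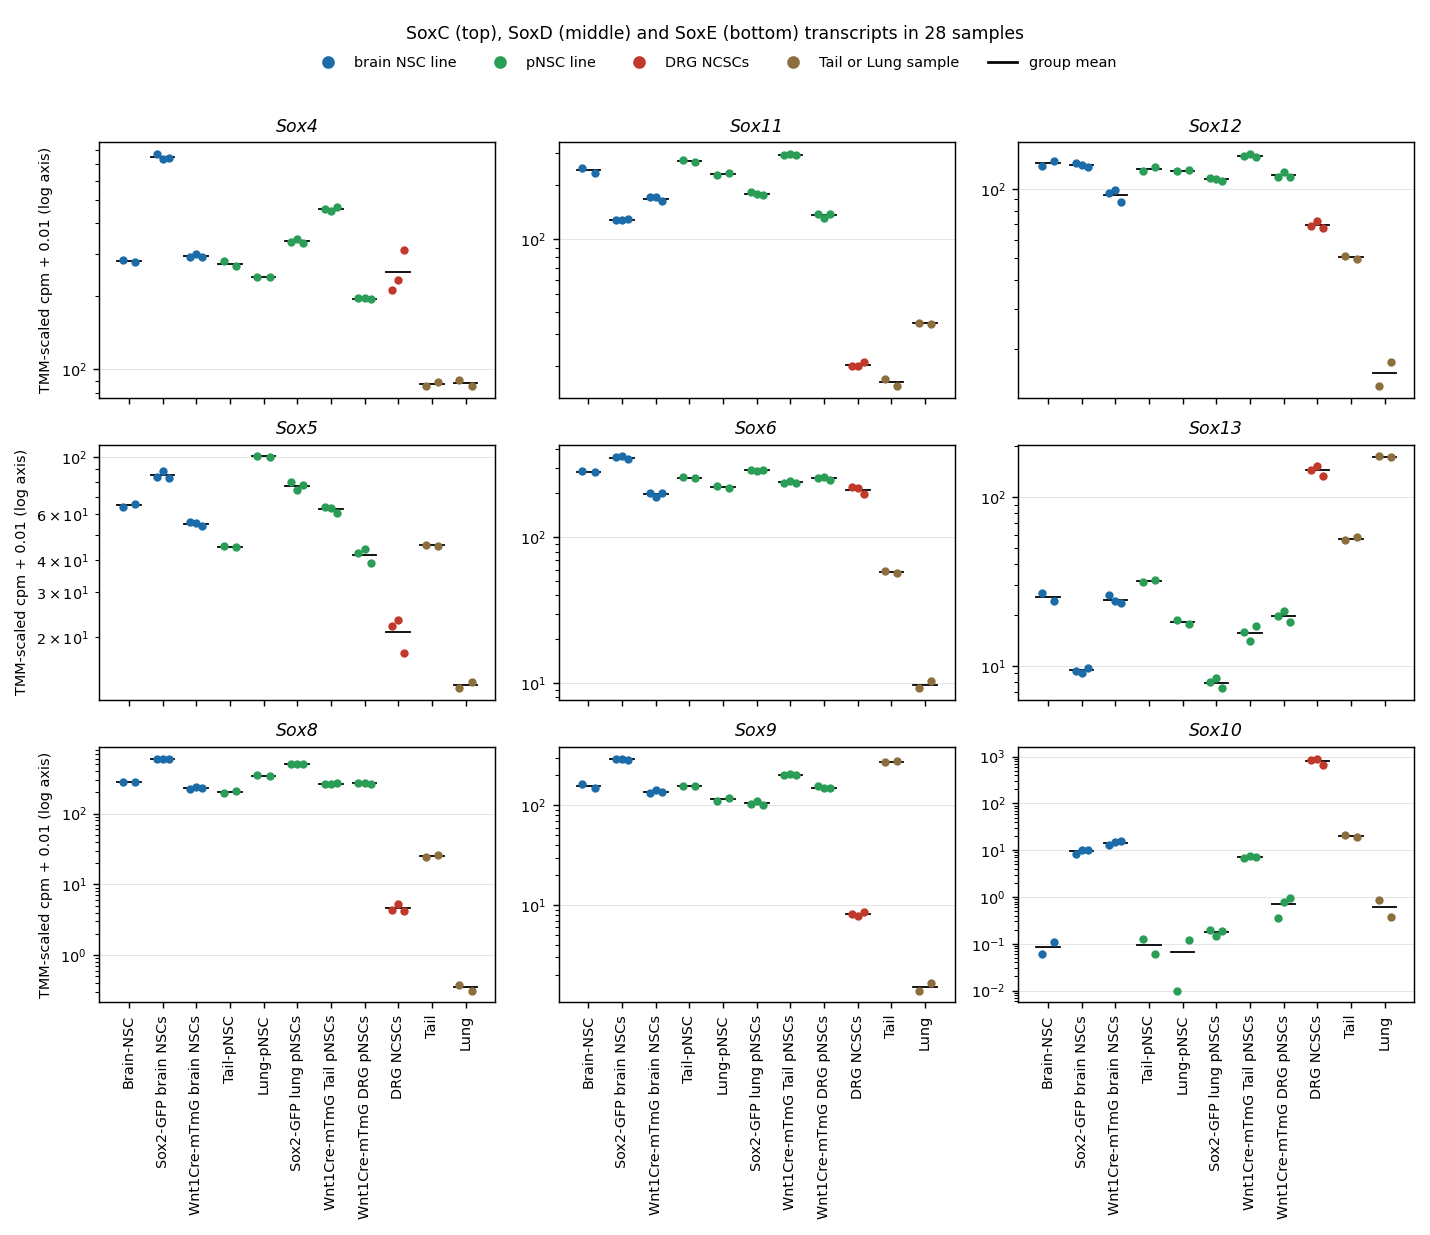
TMM-scaled cpm plus 0.01 (log axis) of the 9 genes in 28 samples, by group; points are samples, short lines are group means, and colours mark brain NSC lines, pNSC lines, DRG NCSCs and Tail or Lung samples. Sox8 and Sox9 were high in every NSC and pNSC line and low in DRG NCSCs and Lung, whereas Sox10 reached 651 to 909 cpm in DRG NCSCs and stayed at or under 15.4 cpm in every NSC or pNSC sample.

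The samples of the NSC and pNSC lines were separated from those of the other 3 groups for 4 of the 9 genes: Sox11, Sox12 and Sox8 were higher in every line, and Sox13 was lower. Of all genes tested, 23.3% were separated in the same way. For Sox4, Sox5, Sox6, Sox9 and Sox10 the ranges overlapped. Among the 8 NSC and pNSC groups, the ratio of the highest to the lowest group mean was 1.48 for Sox12, 1.79 for Sox6, 2.29 for Sox11, 2.41 for Sox5, 2.76 for Sox9, 2.93 for Sox8, 3.83 for Sox4 and 4.03 for Sox13. Over all 11 groups it was 8.88 for Sox12, 35.9 for Sox6, 18.1 for Sox11, 7.72 for Sox5, 192 for Sox9 and 1768 for Sox8. Sox12 was the most even of the 9 transcripts among NSC and pNSC lines, and Sox8 the one that varied most between those lines and a tissue. Sox10 differed from the other 8 in varying widely among the NSC lines themselves: its counts were 1 and 2 in Brain-NSC, 145, 231 and 174 in Sox2-GFP brain NSCs and 148, 152 and 183 in Wnt1Cre-mTmG brain NSCs. These 3 sets of brain NSCs come from 3 experiments, so the line and the experiment cannot be told apart. Of the 495 pairs of groups over the 9 genes, 472 had samples that did not overlap, against 74.3% of such pairs over the 17393 genes tested across all samples, and 459 did so after quantile normalization, with 4 in the opposite order.

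Levels per length were used to compare members with each other, as cpm per kb of summed exon length. Within SoxC, Sox4 was the leading transcript in every group, from 47.9% ± 0.473 (SD, n = 2) of the summed SoxC level in Lung-pNSC to 78.1% ± 0.253 (n = 3) in Sox2-GFP brain NSCs. Part of this lead rests on the lengths used, 4795 bases for Sox4 and 8311 for Sox11. Without them, Sox4 and Sox11 had group means of 273 and 270 cpm in Tail-pNSC, with overlapping samples, and 240 and 229 cpm in Lung-pNSC. Within SoxD, Sox6 held 56.9% to 74.6% (group means) in the 8 NSC and pNSC groups, while Sox13 held 68.0% ± 0.698 (n = 3) in DRG NCSCs, 65.0% ± 1.17 (n = 2) in Tail and 96.3% ± 0.221 (n = 2) in Lung. By this measure the leading SoxD transcript was Sox6 in the NSC and pNSC lines and Sox13 elsewhere. In DRG NCSCs and Tail this order rests on the length used, 14832 bases for Sox6 and 4312 for Sox13 over all annotated transcripts. Without division by length, Sox6 and Sox13 were at 212 and 144 cpm in DRG NCSCs and at 58.2 and 56.8 cpm in Tail (group means). Which transcripts were expressed was not tested. Within SoxE, Sox8 held 62.4% to 86.4% in the NSC and pNSC groups, Sox9 held 82.0% ± 0.308 (n = 2) in Tail, and Sox10 held 98.7% ± 0.219 (n = 3) in DRG NCSCs. The summed SoxE level in Sox2-GFP brain NSCs (265 ± 1.31 cpm per kb) and DRG NCSCs (265 ± 43.6) differed by less than the spread of the NCSCs, with Sox8 leading in the former and Sox10 in the latter. In Lung it was 0.674 ± 0.0812 cpm per kb, from 5 to 27 counts of each gene.

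**Figure D2:**
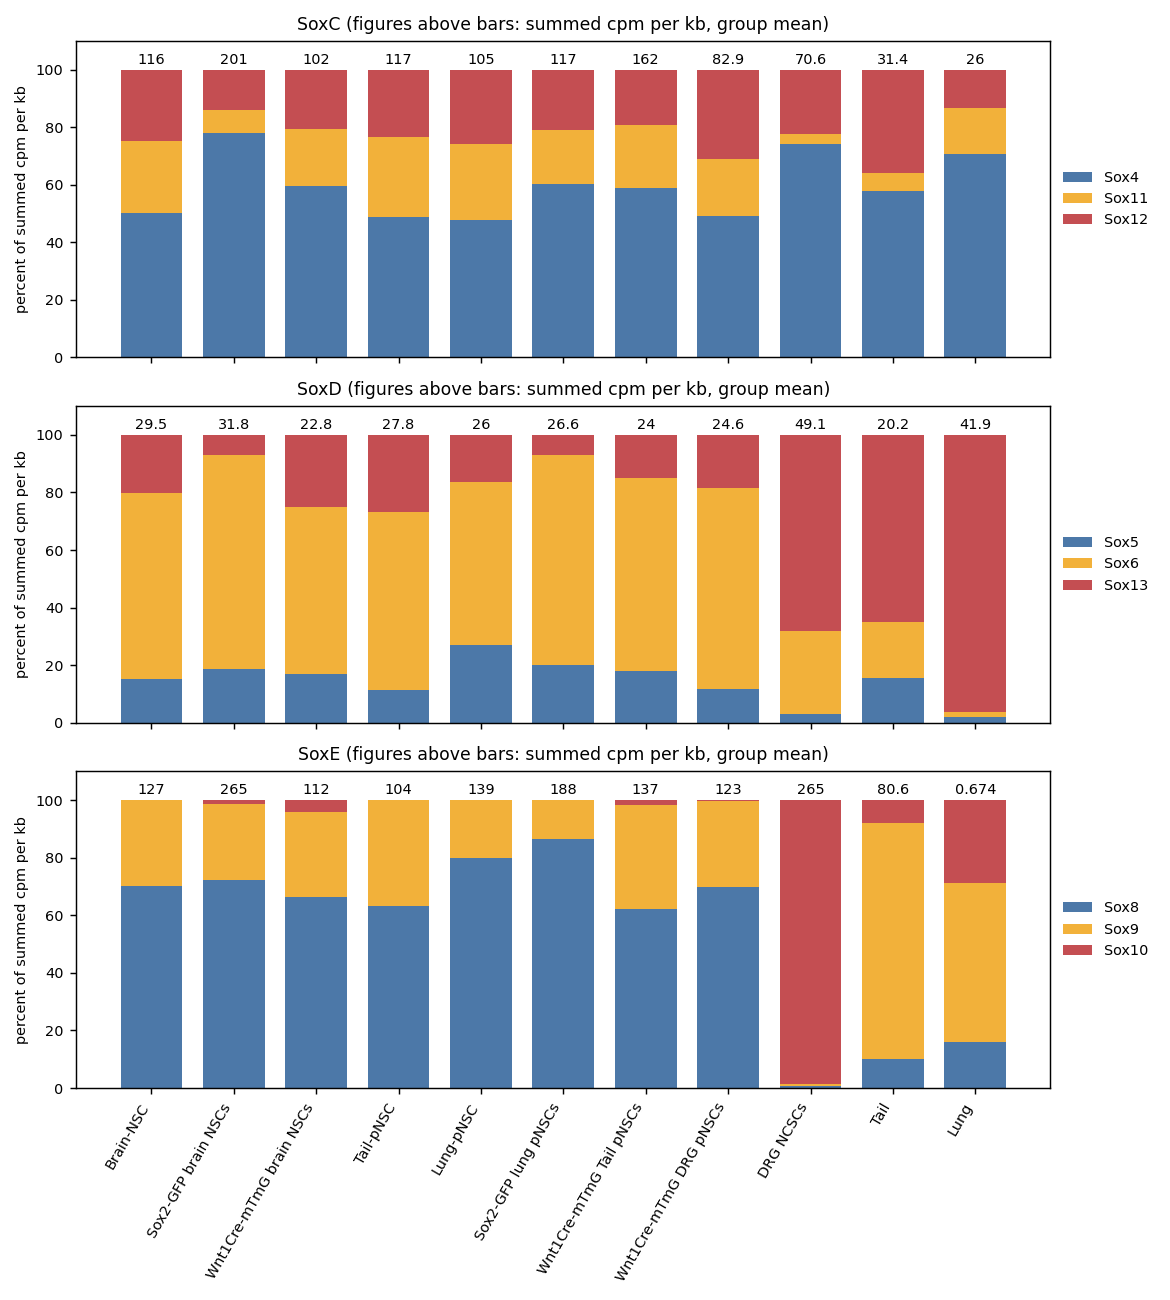
Share of each gene in the summed level of its subgroup (percent of cpm per kb, group means) for SoxC, SoxD and SoxE in 11 groups, with the summed cpm per kb above each bar. Sox6 and Sox8 lead SoxD and SoxE in the NSC and pNSC lines, Sox13 and Sox10 lead in DRG NCSCs, and Sox13 and Sox9 lead in Tail.

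Differences were tested with edgeR's quasi-likelihood test over all genes of an experiment, and a gene was called when its Benjamini-Hochberg adjusted p was under 0.05 and its absolute log2 fold change at least 1. Values are log2 fold change ± SE. Several comparisons share a control group (Brain-NSC, Wnt1Cre-mTmG brain NSCs, DRG NCSCs or Lung), so they are not independent of each other. For 1 gene alone, exact permutation of 2 or 3 samples a group could reach a p of 0.333 or 0.1 at best.

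The first question was whether pNSCs carried the SoxC, SoxD and SoxE transcripts at the levels of brain NSCs. Against the brain NSCs of the same experiment, 0 to 3 of the 9 members were called in the 5 comparisons, and the called ones lay in SoxE or were Sox4. For 9 genes, 0 or 1 calls are near the shares of all genes given below, and 3 calls are above the share. None of the 9 was called in Tail-pNSC against Brain-NSC or in Lung-pNSC against Brain-NSC, where 10.6% and 8.42% of all genes tested were called. By adjusted p alone, with no limit on the fold change, edgeR found 6 and 8 members to differ, against 48.7% and 39.8% of all genes. Of the 9, 6 and 8 had an unadjusted p under 0.05, and limma and DESeq2 called 0 as well. In Wnt1Cre-mTmG Tail pNSCs and Wnt1Cre-mTmG DRG pNSCs, 1 of 9 (Sox10, lower in both) was called against the brain NSCs, with 18.2% and 9.48% of all genes called. In Sox2-GFP lung pNSCs against Sox2-GFP brain NSCs, 3 of 9 were called, all lower (Sox4, Sox9 and Sox10), with 15.7% of all genes called. The other fold changes were under the limit, but by adjusted p alone all 9 members differed in each of these 3 comparisons, against 65.5%, 45.7% and 65.4% of all genes.

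**Figure D3:**
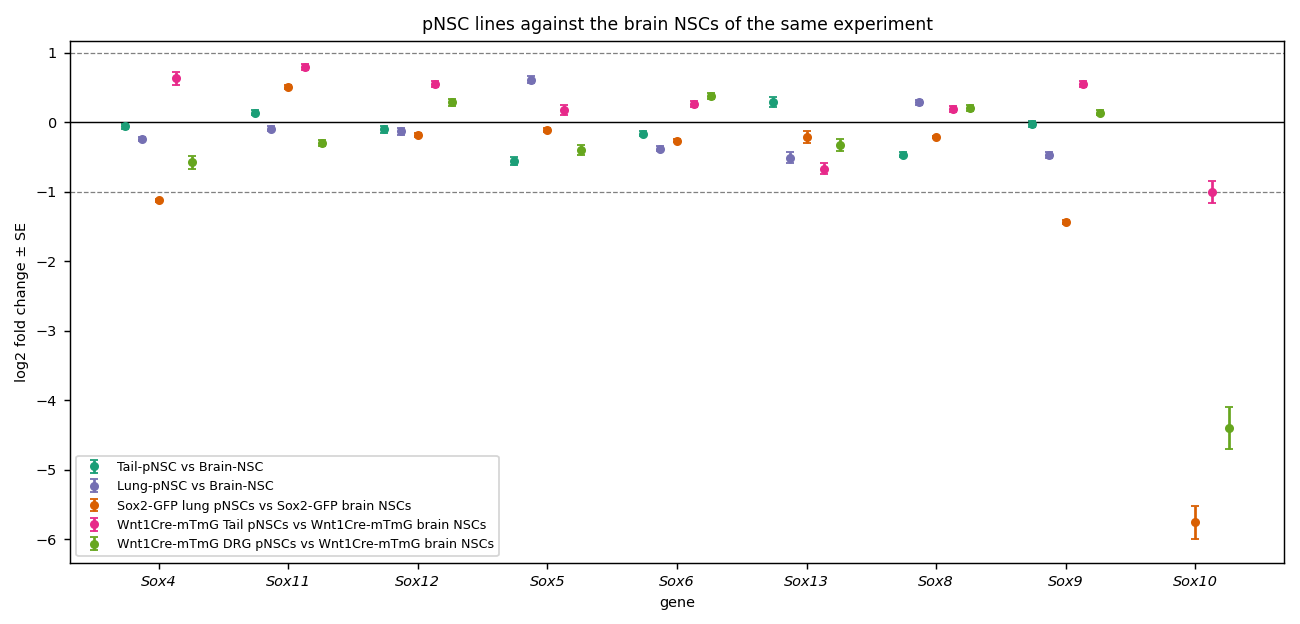
log2 fold change (± SE) of each gene in 5 comparisons of a pNSC group with the brain NSCs of its own experiment; dashed lines mark a log2 fold change of 1 and -1, and Sox10 has no point for Tail-pNSC and Lung-pNSC because both groups were at the floor. Apart from Sox10, points lie between -1.44 and 0.79, and Sox10 is lower in all 3 comparisons shown.

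Sox4, the SoxC factor with the highest level per length, was measured at 283 and 276 cpm in Brain-NSC, 280.3 and 266 cpm in Tail-pNSC and 241 and 239 cpm in Lung-pNSC. It reached 772, 739 and 742 cpm in Sox2-GFP brain NSCs and 336, 344 and 334 cpm in Sox2-GFP lung pNSCs, groups that did not overlap (edgeR log2 fold change -1.13 ± 0.02, adjusted p = 2.01e-86). The Sox2-GFP brain NSCs were higher than every other group for this gene. In the Wnt1Cre-mTmG mice it was 289.5, 299 and 291 cpm in brain NSCs, 459, 448 and 466 cpm in Tail pNSCs and 196, 197 and 195 cpm in DRG pNSCs. The Tail pNSCs were higher (edgeR log2 fold change 0.63 ± 0.09, adjusted p = 1.10e-05) and the DRG pNSCs lower (edgeR log2 fold change -0.58 ± 0.09, adjusted p = 7.69e-05) than the brain NSCs, both under the fold limit. The 5 fibroblast markers (Col1a1, Col1a2, Col3a1, Dcn and Lum) summed to 375 to 388 cpm in these Tail pNSCs, all above the floor, against 10.3 to 11.9 cpm in the brain NSCs. Their part in the differences of the Tail pNSCs was not tested.

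Sox11, the SoxC factor most restricted to immature neural cells, was 249 and 233 cpm in Brain-NSC, 273 and 267 cpm in Tail-pNSC and 226 and 232 cpm in Lung-pNSC, and the Lung-pNSC samples lay just below those of Brain-NSC. In the Sox2-GFP mice its order was the reverse of Sox4, with 127, 128 and 129 cpm in brain NSCs and 182, 179 and 176 cpm in lung pNSCs (edgeR log2 fold change 0.51 ± 0.03, adjusted p = 1.94e-37). It was highest in Wnt1Cre-mTmG Tail pNSCs at 293, 296 and 294 cpm, above 171, 172 and 162 cpm in the brain NSCs (edgeR log2 fold change 0.79 ± 0.04, adjusted p = 8.19e-12), while the DRG pNSCs were at 138, 131 and 139 cpm. Sox12, a weaker activator than the other two, ranged only from a group mean of 94.1 ± 5.46 cpm in Wnt1Cre-mTmG brain NSCs to 139 ± 2.42 cpm in Wnt1Cre-mTmG Tail pNSCs (edgeR log2 fold change 0.55 ± 0.05, adjusted p = 1.23e-08).

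Among SoxD factors, Sox5 lay on opposite sides of Brain-NSC in the 2 pNSC groups of the first experiment, both under the fold limit. It was 64.0 and 65.9 cpm in Brain-NSC, 45.3 and 44.7 cpm in Tail-pNSC (edgeR log2 fold change -0.56 ± 0.06, adjusted p = 9.39e-15) and 101 and 100.4 cpm in Lung-pNSC (edgeR log2 fold change 0.61 ± 0.05, adjusted p = 6.26e-19). Tail-pNSC lay below and Lung-pNSC above both Brain-NSC samples, and Lung-pNSC was the highest group of all for this gene. In the other experiments Sox5 differed by less, with a log2 fold change between -0.40 and 0.17. Sox6, which pairs with Sox5, was high and even, with group means from 197 to 352 cpm in the NSC and pNSC groups, and its log2 fold changes against brain NSCs lay between -0.39 and 0.37. Sox13, the other SoxD factor, ranged in these groups from 7.99, 8.44 and 7.34 cpm in Sox2-GFP lung pNSCs to 31.6 and 32.3 cpm in Tail-pNSC. In Wnt1Cre-mTmG Tail pNSCs it was 15.8, 14.0 and 17.3 cpm, against 26.2, 24.1 and 23.7 cpm in the brain NSCs (edgeR log2 fold change -0.67 ± 0.09, adjusted p = 2.55e-06), so the samples did not overlap.

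Among SoxE factors, Sox8 was 281 and 276 cpm in Brain-NSC, 198 and 211 cpm in Tail-pNSC and 347 and 345 cpm in Lung-pNSC. The tail line was lower (edgeR log2 fold change -0.47 ± 0.04, adjusted p = 1.76e-20) and the lung line higher (edgeR log2 fold change 0.29 ± 0.04, adjusted p = 3.61e-11), as for Sox5. In Sox2-GFP brain NSCs it was 596, 600.4 and 599 cpm, and in Sox2-GFP lung pNSCs 507, 509 and 500.1 cpm, the 2 highest groups of the series. Sox9 was 295, 292 and 283 cpm in Sox2-GFP brain NSCs and 104, 110.5 and 101 cpm in Sox2-GFP lung pNSCs (edgeR log2 fold change -1.44 ± 0.03, adjusted p = 5.01e-84). This was the largest difference for any member other than Sox10 between pNSCs and brain NSCs, and the samples of the groups did not overlap. In the first experiment Sox9 was 165 and 149.8 cpm in Brain-NSC, 158 and 157 cpm in Tail-pNSC and 112 and 119.7 cpm in Lung-pNSC (edgeR log2 fold change -0.47 ± 0.04, adjusted p = 3.62e-17). The Tail-pNSC samples lay within the Brain-NSC range. In Sox2-GFP brain NSCs the summed astrocyte markers (Gfap, Aqp4, Aldh1l1, Slc1a3; 4 of 4 above the floor in both groups) were 2810 to 2833 cpm, against 1465 to 1475 cpm in Sox2-GFP lung pNSCs. Their part in the Sox9 difference was not tested.

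Sox10 gave the sharpest contrasts. Its counts were 148, 152 and 183 in Wnt1Cre-mTmG brain NSCs, 154, 165 and 144 in Tail pNSCs and 4, 8 and 10 in DRG pNSCs of those mice. Scaled for depth these were 13.2, 14.7 and 15.4 cpm, 6.82, 7.68 and 7.31 cpm and 0.338, 0.785 and 0.957 cpm, so that brain NSCs were highest and DRG pNSCs lowest, with no overlap. The DRG pNSC difference was large (edgeR log2 fold change -4.40 ± 0.30, adjusted p = 3.18e-09), and the ratio of summed counts was 21.3-fold lower (95% counting interval 13.9 to 34.3). The Tail pNSC difference lay at the fold limit (edgeR log2 fold change -1.01 ± 0.16, adjusted p = 2.87e-05). It fell under the limit without Tail pNSCs replicate 1 (-0.96), without brain NSCs replicate 2 (-0.997) and without brain NSCs replicate 3 (-0.95). In Sox2-GFP lung pNSCs 4, 3 and 4 counts were found, against 145, 231 and 174 in Sox2-GFP brain NSCs, a ratio of 57.1-fold lower (95% counting interval 31.6 to 115.0; edgeR log2 fold change -5.76 ± 0.24, adjusted p = 5.21e-46). Only those brain NSCs held enough Sox10 in every sample to pass the filter of that fit on their own (Lung held 16 and 6 counts). This call therefore largely followed from the filter. In the first experiment no fold could be given, since Brain-NSC held 1 and 2, Tail-pNSC 2 and 1 and Lung-pNSC 0 and 2 counts.

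Whether the pNSC effect on a gene differed between experiments was tested as an interaction over all 28 samples. None of the 9 members was called for either interaction, with 15.9% of all genes called for tail and 14.1% for lung. For lung, Sox9 lay just under the limit (-0.98) and passed it in several alternatives. It was -1.04 with DESeq2 and with limma, -1.03 with upper-quartile scaling, -1.02 with no filter and -1.08 without Brain-NSC replicate 1. With a replicate block no member was called. Sox10 could not be judged, because Brain-NSC, Tail-pNSC and Lung-pNSC held only 0 to 2 counts of it per sample. Its estimates were -1.11 ± 1.83 for tail and -5.27 ± 2.66 for lung. By adjusted p alone 8 and 5 members differed, against 48.6% and 47% of all genes, and 8 and 7 had an unadjusted p under 0.05. DESeq2 and limma called 0 members for tail and 2 each for lung. For lung these were Sox9 and Sox10, since no other member reached a size of 1 in any alternative (Sox4 at most -0.95). The Sox10 call rests on the few counts that left it unjudged. For tail, the effect in Wnt1Cre-mTmG mice minus that in the first experiment was above 0 for 7 of the 8 that differed, from 0.42 ± 0.06 for Sox6 to 0.72 ± 0.09 for Sox5, and below 0 for Sox13 (-0.97 ± 0.11). For lung, the effect in Sox2-GFP mice minus that in the first experiment was -0.98 ± 0.06 for Sox9, -0.89 ± 0.10 for Sox4, -0.73 ± 0.08 for Sox5, -0.51 ± 0.05 for Sox8 and 0.60 ± 0.05 for Sox11 (edgeR, adjusted p for Sox9 = 5.19e-16 and for Sox11 = 4.77e-12). The brain NSCs of the experiments also differed in level (Sox4 group means of 279 and 751 cpm in Brain-NSC and Sox2-GFP brain NSCs), and reporter, age, line and experiment cannot be told apart.

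The second question was how pNSCs differed from the tissue they came from. Here most members were called. In Tail-pNSC against Tail, 6 of 9 were called (5 higher, 1 lower), with 46.4% of all genes called. In Lung-pNSC against Lung 9 of 9 were called (7 higher, 2 lower), with 55% of all genes called. In Sox2-GFP lung pNSCs against Lung it was also 9 of 9 (7 higher, 2 lower), with 56.3% of all genes called. Those Lung samples belong to the first experiment and carry no age, so cell type, reporter, age and experiment cannot be told apart there. The median log2 fold change of the 9 members was 1.18, 2.88 and 2.53, against -0.16, -0.15 and -0.12 for all genes tested. Between bulk samples, fewer cells of a type and less RNA per cell cannot be told apart.

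SoxC transcripts were lower in tissue. Sox11 was 17.0 and 15.5 cpm in Tail and 34.8 and 34.1 cpm in Lung, against 273 and 267 cpm in Tail-pNSC (edgeR log2 fold change 3.95 ± 0.05, adjusted p = 1.80e-78) and 226 and 232 cpm in Lung-pNSC (edgeR log2 fold change 2.66 ± 0.05, adjusted p = 3.62e-69). Sox4 was about equal in both tissues, at 85.6 and 88.5 cpm in Tail and 90.9 and 85.4 cpm in Lung, and rose in each pNSC group, by a log2 fold change of 1.55 in Tail-pNSC, 1.37 in Lung-pNSC and 1.89 in Sox2-GFP lung pNSCs. Sox12 was 51.1 and 49.6 cpm in Tail and 13.7 and 17.6 cpm in Lung, and rose against Tail (edgeR log2 fold change 1.18 ± 0.05, adjusted p = 7.17e-37) and against Lung (edgeR log2 fold change 2.88 ± 0.07, adjusted p = 9.29e-61). All SoxC samples of pNSCs lay above those of their tissue.

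SoxD transcripts went both ways. Sox6 was 59.1 and 57.2 cpm in Tail and 9.24 and 10.4 cpm in Lung, and rose in Tail-pNSC (edgeR log2 fold change 2.03 ± 0.04, adjusted p = 6.91e-63), Lung-pNSC (edgeR log2 fold change 4.42 ± 0.06, adjusted p = 5.14e-80) and Sox2-GFP lung pNSCs (edgeR log2 fold change 4.84 ± 0.05, adjusted p = 2.07e-114). Sox5 rose against Lung, at 12.7 and 13.4 cpm there (edgeR log2 fold change 2.88 ± 0.07, adjusted p = 5.12e-59 in Lung-pNSC), but not against Tail, where 45.8 and 45.1 cpm overlapped 45.3 and 44.7 cpm in Tail-pNSC (edgeR log2 fold change -0.12 ± 0.06, adjusted p = 0.0717, or 0.01 with limma on quantile-normalized values). Sox13 was the SoxD gene that was higher in tissue: it was 174 and 173 cpm in Lung, 18.7 and 17.8 cpm in Lung-pNSC (edgeR log2 fold change -3.32 ± 0.06, adjusted p = 2.82e-69) and 7.99, 8.44 and 7.34 cpm in Sox2-GFP lung pNSCs (edgeR log2 fold change -4.50 ± 0.05, adjusted p = 1.69e-107). Tail held 55.4 and 58.1 cpm and Tail-pNSC 31.6 and 32.3 cpm (edgeR log2 fold change -0.93 ± 0.06, adjusted p = 7.67e-25), just under the fold limit. Lung also held the endothelial markers Pecam1, Cdh5 and Kdr (3 of 3 above the floor, summed 3229 to 3299 cpm, against 1.42 to 2.63 in Lung-pNSC, with Cdh5 at 0), and the lung epithelial markers at 27673 to 28278 cpm, against 0 in Lung-pNSC for all 5 of them. Their part in the Sox13 difference was not tested.

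SoxE transcripts showed the widest range. Sox8 held 7 and 5 counts in the Lung samples, against 347 and 345 cpm in Lung-pNSC (edgeR log2 fold change 9.89 ± 0.10, adjusted p = 6.17e-91) and 507, 509 and 500.1 cpm in Sox2-GFP lung pNSCs (edgeR log2 fold change 10.47 ± 0.07, adjusted p = 5.59e-132). Sox9 held 26 and 27 counts in Lung, against 112 and 119.7 cpm in Lung-pNSC (edgeR log2 fold change 6.19 ± 0.10, adjusted p = 4.18e-74). Both genes held few counts in Lung and were abundant in the lines from lung. In Tail the genes parted: Sox8 was 24.2 and 25.9 cpm, below 198 and 211 cpm in Tail-pNSC (edgeR log2 fold change 2.93 ± 0.05, adjusted p = 4.00e-70), while Sox9 was 271 and 276 cpm, above 158 and 157 cpm in Tail-pNSC (edgeR log2 fold change -0.90 ± 0.04, adjusted p = 2.67e-37), just under the fold limit. The cartilage markers Col2a1, Acan, Col9a1 and Matn1 were all above the floor in Tail (summed 47127 to 48093 cpm) and 1 of 4 was in Tail-pNSC (summed 0.764 to 1.39 cpm, with Matn1 at 0). Their part in the Sox9 level of Tail was not tested.

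Sox10 was called lower in pNSCs than in tissue. Tail held 374 and 294 counts and Tail-pNSC 2 and 1, a ratio of 245-fold (95% counting interval 83.3 to 1189). In the first experiment only Tail held enough Sox10 in both samples to pass the filter on its own, with 1 and 2 counts in Brain-NSC. The Sox10 calls in Tail-pNSC against Tail and in Tail against Lung therefore largely followed from the filter. Lung held 16 and 6 counts, Lung-pNSC 0 and 2 and Sox2-GFP lung pNSCs 4, 3 and 4, ratios of 12.2-fold (95% counting interval 2.99 to 107) and 3.72-fold (1.73 to 8.49) between summed counts. The call against Lung rested on few counts: for Sox2-GFP lung pNSCs it was lost without Lung replicate 1 (-1.14, edgeR adjusted p = 0.166), and with limma on quantile-normalized values it turned to 1.59 (adjusted p = 5.58e-04). For Lung-pNSC the same normalization gave 0.05. The 6 Schwann cell and neural crest markers, all above the floor in Tail, summed to 856 to 868 cpm there and to 4.48 to 4.92 cpm in Tail-pNSC, where 4 of 6 were above the floor and Foxd3 was at 0. Their part in the Sox10 difference was not tested.

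Between the tissues themselves, 8 of 9 members were called in Tail against Lung (6 higher, 2 lower), with 43.4% of all genes called. Sox9 (edgeR log2 fold change 7.53 ± 0.09, adjusted p = 9.85e-86), Sox8 (edgeR log2 fold change 6.20 ± 0.17, adjusted p = 2.48e-53), Sox10 (edgeR log2 fold change 5.01 ± 0.23, adjusted p = 1.00e-37), Sox6, Sox5 and Sox12 were higher in Tail. Sox13 (edgeR log2 fold change -1.58 ± 0.05, adjusted p = 1.98e-48) and Sox11 (edgeR log2 fold change -1.05 ± 0.07, adjusted p = 1.78e-24) were higher in Lung, the latter close to the limit (-0.98 without Tail replicate 2). Sox4 was the member that was not called (edgeR log2 fold change 0.01 ± 0.04, adjusted p = 0.835), and its sign turned with DESeq2 (-0.05).

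**Figure D4:**
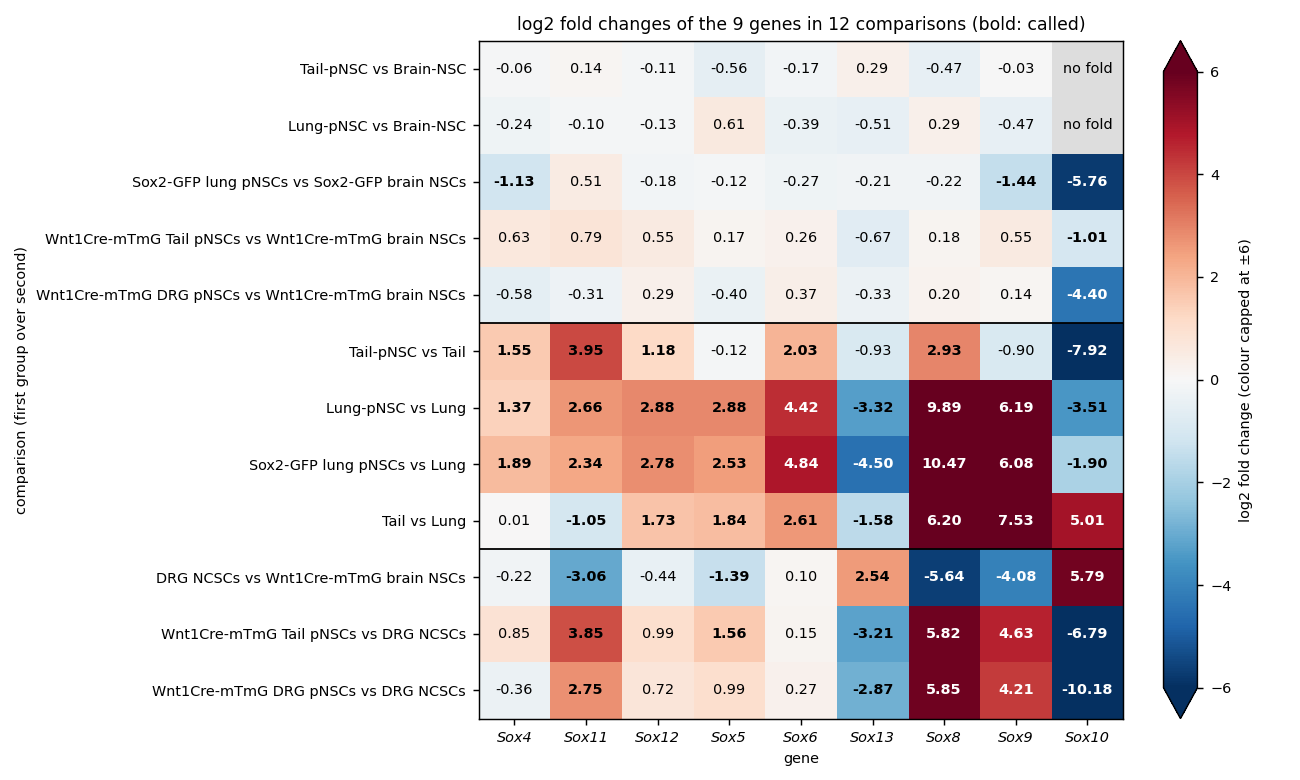
log2 fold change of the 9 genes in 12 comparisons (first group over second), with called values in bold, colours capped at 6 and -6, and grey where both groups were at the floor; lines part comparisons with brain NSCs, with or between tissues, and with DRG NCSCs. Pale colours fill the top block except under Sox10, while Sox8 and Sox9 are dark in the comparisons with Lung and with DRG NCSCs.

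The third question was how pNSCs and brain NSCs differed from NCSCs. In DRG NCSCs against Wnt1Cre-mTmG brain NSCs, 6 of 9 members were called (2 higher, 4 lower), with 36.9% of all genes called. Wnt1Cre-mTmG Tail pNSCs against DRG NCSCs gave 6 of 9 (4 higher, 2 lower), with 37.9% of all genes called, and Wnt1Cre-mTmG DRG pNSCs against DRG NCSCs gave 5 of 9 (3 higher, 2 lower), with 38.3% of all genes called. By adjusted p alone the last had all 9, against 82.4% of all genes. The SoxE genes moved most: Sox10 was higher and Sox8 and Sox9 lower in NCSCs than in every NSC or pNSC group. The NCSCs also held the 5 fibroblast markers at 2805 to 3460 cpm, all above the floor, and their part in these differences was not tested.

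Sox10 was 836, 909 and 651 cpm in DRG NCSCs, against 13.2, 14.7 and 15.4 cpm in the brain NSCs (edgeR log2 fold change 5.79 ± 0.12, adjusted p = 1.18e-17). The Tail pNSCs (edgeR log2 fold change -6.79 ± 0.12, adjusted p = 1.50e-18) and the DRG pNSCs (edgeR log2 fold change -10.18 ± 0.18, adjusted p = 1.71e-18) were lower than the NCSCs. Of the groups in this experiment, the pNSCs that came from DRG held the least Sox10 and the NCSCs from DRG the most. The lowest of the 3 NCSC values came from replicate 3, the sample that stood apart. Without it the differences were 5.91, -6.92 and -10.31. Sox8 was 4.39, 5.29 and 4.23 cpm in DRG NCSCs, against 224, 241 and 231 cpm in brain NSCs (edgeR log2 fold change -5.64 ± 0.06, adjusted p = 4.15e-21), and Sox9 was 8.12, 7.86 and 8.58 cpm, against 134, 143 and 136 cpm (edgeR log2 fold change -4.08 ± 0.05, adjusted p = 2.22e-20). The pNSCs of both sources were above NCSCs for both genes, with log2 fold changes of 5.82 and 5.85 for Sox8 and 4.63 and 4.21 for Sox9.

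Sox11 and Sox13 also set NCSCs apart. Sox11 held 428, 418 and 357 counts in DRG NCSCs (20.3 ± 0.603 cpm), against 293, 296 and 294 cpm in Tail pNSCs (edgeR log2 fold change 3.85 ± 0.05, adjusted p = 7.03e-21) and 138, 131 and 139 cpm in DRG pNSCs (edgeR log2 fold change 2.75 ± 0.05, adjusted p = 8.53e-19). Sox13 ran the other way, at 145, 153 and 133 cpm in DRG NCSCs, 15.8, 14.0 and 17.3 cpm in Tail pNSCs (edgeR log2 fold change -3.21 ± 0.07, adjusted p = 2.86e-17) and 19.7, 21.0 and 18.2 cpm in DRG pNSCs (edgeR log2 fold change -2.87 ± 0.07, adjusted p = 3.83e-16). The NCSC samples did not overlap those of pNSCs for either gene. Sox5 was 22.1, 23.3 and 17.5 cpm in DRG NCSCs, lower than in brain NSCs (edgeR log2 fold change -1.39 ± 0.08, adjusted p = 2.46e-11) and Tail pNSCs (edgeR log2 fold change 1.56 ± 0.07, adjusted p = 1.69e-12). Against DRG pNSCs the difference lay just under the limit (edgeR log2 fold change 0.99 ± 0.08, adjusted p = 4.66e-09).

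Sox6, Sox12 and Sox4 separated the groups least. Sox6 was 221, 217 and 197 cpm in DRG NCSCs and 201, 189.8 and 199.8 cpm in brain NSCs, groups that overlapped (edgeR log2 fold change 0.10 ± 0.04, adjusted p = 0.0354), so its level in NCSCs was within the range of the NSC lines. Sox12 was 68.9, 72.2 and 67.1 cpm in NCSCs, below every NSC or pNSC sample. Against Wnt1Cre-mTmG Tail pNSCs the edgeR log2 fold change of 0.99 lay just under the limit. It passed with limma on quantile-normalized values (1.006), with upper-quartile scaling (1.005), without Tail pNSCs replicate 3 (1.001) and without NCSCs replicate 2 (1.014). Against the other Wnt1Cre-mTmG groups Sox12 was under the limit. Sox4 was 212, 234 and 311 cpm in NCSCs, and the third value, from the replicate that stood apart, was above all Wnt1Cre-mTmG brain NSC values while the other two were below them (edgeR log2 fold change -0.22 ± 0.09, adjusted p = 0.0348). Without that replicate Sox4 in Tail pNSCs passed the limit against NCSCs (1.03, edgeR adjusted p = 5.04e-51).

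Genes known as targets or partners of these factors were counted next, from lists written with earlier results of these data known. The filter of each fit covered all its groups. A gene low in the others could therefore pass it through NCSCs, a tissue or the NSC and pNSC lines alone. For such genes in any list below, a call against that group largely followed from the filter. Of the Schwann cell and neural crest markers, 3 are also on the SoxE list, Erbb3 among them, and the 4 cartilage markers are on the cartilage list. Of 14 SoxE target genes of glia and neural crest, all tested, 11 were higher and 1 lower in DRG NCSCs against Wnt1Cre-mTmG brain NSCs. Of all genes, 36.9% were called. The median log2 fold change was 4.15, against 0.01 for all genes. Erbb3, the neuregulin receptor of Schwann cell precursors, was at 943 cpm in NCSCs and 0.516 cpm in those brain NSCs. Ret, a receptor of enteric neural crest, was at 179 and 0.806 cpm (group means). Against NCSCs, 1 of the 14 was higher and 11 lower in each pNSC group of the Wnt1Cre-mTmG mice. Of all genes, 37.9% were called for tail and 38.3% for DRG. The medians for the tail and DRG lines were -5.61 and -4.87, or -3.81 and -5.01 with genes at 0 in a group set to the floor. Against brain NSCs, 1 of the list was higher and 2 lower in Wnt1Cre-mTmG Tail pNSCs, with 18.2% of all genes called. In Wnt1Cre-mTmG DRG pNSCs it was 0 and 1, with 9.48%. In the first experiment Tail-pNSC had 1 and 3, with 10.6%, and Lung-pNSC 1 and 0, with 8.42%. The Tail-pNSC count was above the share of all genes, and the others were near it. In Tail-pNSC the median of the list changed sign with genes at 0 set to the floor and genes at the floor in both groups left out (-0.36 and 0.24). In Sox2-GFP lung pNSCs, 13 of the 14 were tested, and 1 was higher and 8 lower than in Sox2-GFP brain NSCs. The median was -1.73, against 0 for all genes, and 15.7% of all genes were called.

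**Figure D5:**
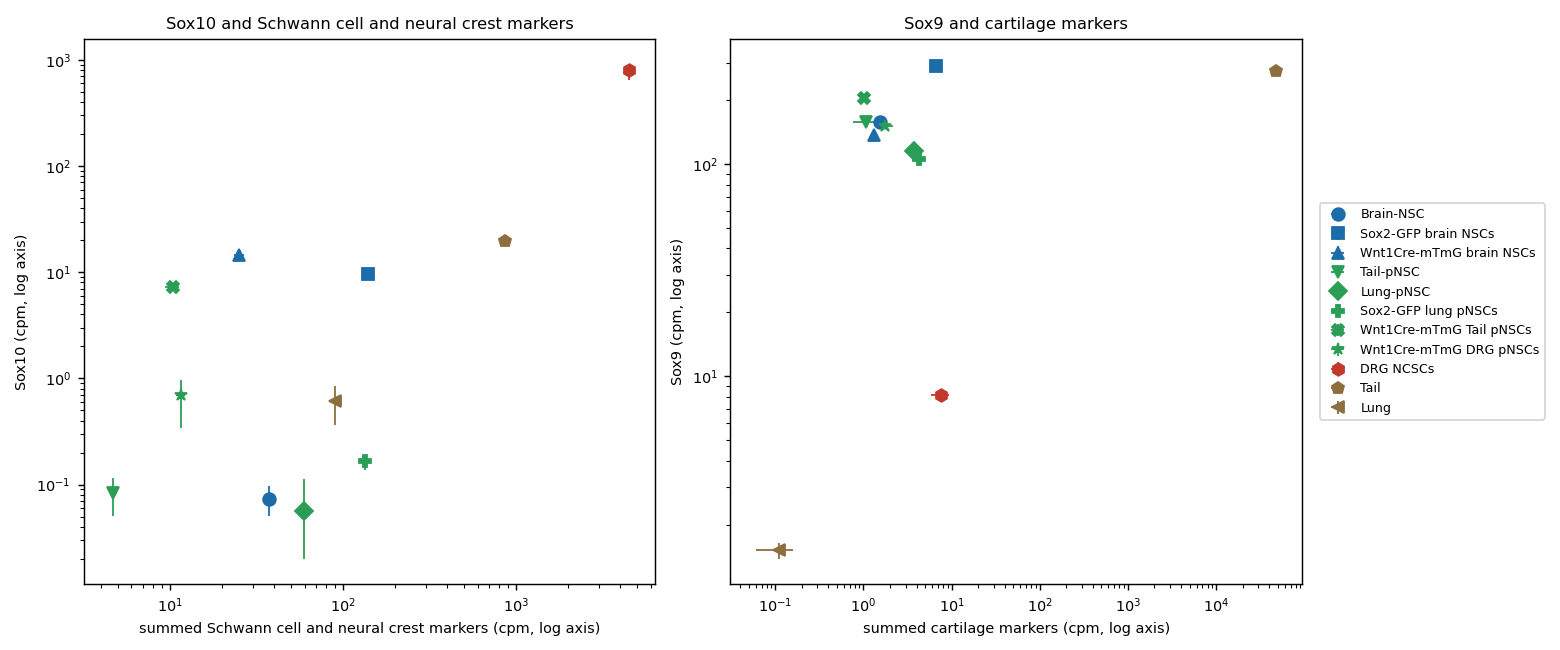
Mean level of Sox10 against the summed Schwann cell and neural crest markers (left), and of Sox9 against the summed cartilage markers (right), in cpm on log axes for 11 groups; bars span the lowest to the highest sample. DRG NCSCs and Tail hold the highest values of both axes on the left, whereas on the right Sox9 is above 100 cpm in the NSC and pNSC lines, whose cartilage markers sum to under 10 cpm.

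Between pNSCs and tissue, of these SoxE targets 1 was higher and 12 lower in Tail-pNSC against Tail, 2 and 11 in Lung-pNSC against Lung, and 2 and 10 in Sox2-GFP lung pNSCs against Lung (medians of -4.67, -4.24 and -4.56, or -4.12, -3.29 and -3.22 with genes at 0 set to the floor). Of all genes, 46.4%, 55% and 56.3% were called in these comparisons. Dct, a melanocyte enzyme, held 1354 and 1148 counts in the Tail samples and 0 in Tail-pNSC. The filters here included the tissue samples, so calls of genes that passed through tissue alone largely followed from the filter. Gjc3, a glial connexin, had the largest rise in Lung-pNSC and in Sox2-GFP lung pNSCs: it was at 0 in Lung and at 34.1 and 174 cpm in the 2 pNSC groups. Gjc3 was also the target that rose in Tail-pNSC against Brain-NSC, at 113 and 7.35 cpm (edgeR log2 fold change 3.91 ± 0.08, adjusted p = 7.39e-63). In Wnt1Cre-mTmG Tail pNSCs against their brain NSCs Gjc3 fell, at 4.72 and 13.5 cpm (-1.54 ± 0.10, adjusted p = 3.71e-10), and the 2 tail effects differed by -5.45 in the interaction (adjusted p = 5.53e-27). In Tail against Lung, 7 of the 14 were higher and 1 lower, with 43.4% of all genes called.

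Of 13 cartilage genes that Sox9 drives with Sox5 and Sox6, all 13 were higher in Tail than in Lung and all 13 were lower in Tail-pNSC than in Tail. Of all genes, 43.4% and 46.4% were called. The filter of the first experiment included the Tail samples, so genes low elsewhere could pass it through Tail alone. For such genes a call in these comparisons largely followed from the filter. Col2a1, the main collagen of cartilage, held 761062 and 652255 counts in the Tail samples, 2 and 1 in Lung, and 3 and 3 in Tail-pNSC. In the NSC and pNSC lines, where Sox9, Sox5 and Sox6 were all detected, part of the list was not: 6 of the 13 were at or under the floor in both Tail-pNSC and Brain-NSC, and 5 in both Lung-pNSC and Brain-NSC. Lung-pNSC against Brain-NSC had 5 higher and 1 lower, and Col11a1 rose by a log2 fold change of 1.55 ± 0.04 (edgeR, adjusted p = 4.00e-55). Tail-pNSC had 0 higher and 1 lower. Of all genes, 8.42% were called in Lung-pNSC and 10.6% in Tail-pNSC. In the Wnt1Cre-mTmG and Sox2-GFP experiments 8 of the 13 were tested. The counts higher and lower were 2 and 1 for tail lines and 1 and 0 for DRG lines, with 18.2% and 9.48% of all genes called. They were 3 and 3 for Sox2-GFP lung pNSCs, with 15.7%. In the last, Col11a1 rose (edgeR 2.35 ± 0.03, adjusted p = 4.21e-109) and Col9a3 fell (-3.91 ± 0.06, adjusted p = 6.22e-92). Against Lung, 6 were higher in each of the lung pNSC groups, with 2 lower in Lung-pNSC and 1 in Sox2-GFP lung pNSCs. Of all genes, 55% and 56.3% were called. Against NCSCs, 1 was higher and 3 lower in the tail line. In the DRG line, 3 were higher and 5 lower. NCSCs against brain NSCs had 4 higher and 1 lower. The shares of all genes called were 37.9% for the tail line, 38.3% for the DRG line and 36.9% for the NCSCs.

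Of 5 genes listed as switched on by SoxC factors, Tubb3, Map2 and Dcx among them, all 5 were higher in both lung pNSC groups than in Lung. In Tail-pNSC 3 of 5 were higher than in Tail (medians 4.59 in Lung-pNSC, 3.54 in Sox2-GFP lung pNSCs and 2.25 in Tail-pNSC). Of all genes, 55%, 56.3% and 46.4% were called in these comparisons. Map2, a dendritic microtubule protein, was at 15.9 cpm in Lung and 39.6 cpm in Tail, against 1636 in Lung-pNSC and 1325 in Tail-pNSC. Against brain NSCs the list parted by gene. Dcx, a microtubule protein of migrating neurons, was at 8.02 cpm in Brain-NSC and 0.482 in Tail-pNSC. It was at 39.1 cpm in Sox2-GFP brain NSCs and 0.746 in Sox2-GFP lung pNSCs, and at 9.63, 22.9 and 4.07 in the brain NSCs, Tail pNSCs and DRG pNSCs of the Wnt1Cre-mTmG mice. Dcx was called in these 4 comparisons, lower in 3 and higher in Wnt1Cre-mTmG Tail pNSCs. Lung-pNSC and Sox2-GFP lung pNSCs had Tubb3 lower as well, and Wnt1Cre-mTmG Tail pNSCs had it higher, with 1 or 2 of the 5 called in each of the 5 comparisons. There 8.42% to 18.2% of all genes were called. In NCSCs against brain NSCs, 1 was higher (Tubb3, 303 and 11.3 cpm) and 3 lower. Against NCSCs, both Wnt1Cre-mTmG pNSC groups had 3 higher and 1 lower. Tail against Lung had 3 higher and 0 lower. The shares of all genes called were 36.9% for NCSCs against brain NSCs and 43.4% for Tail against Lung. For the tail and DRG lines against NCSCs they were 37.9% and 38.3%.

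Of 11 factors that act with SoxD or SoxE proteins, 0 were called in Tail-pNSC against Brain-NSC, with 10.6% of all genes called. In Lung-pNSC 3 were higher and 0 lower, with 8.42% of all genes called. These 3 are known as factors of the neural crest: Pax3 (512 and 383 counts, against 0 in both Brain-NSC samples, at least 155-fold higher with the floor of 3 counts per library), Tfap2a (16.0 and 0.173 cpm) and Foxd3 (22 and 10 counts, against 0). Sox10 itself was at 0 and 2 counts in those 2 Lung-pNSC samples. Pax3 was also higher in Wnt1Cre-mTmG DRG pNSCs (128, 86 and 94 counts, against 0 in all brain NSC samples), the 1 factor that was higher there, and Tfap2a was the 1 that was lower. In Sox2-GFP lung pNSCs 10 of the 11 were tested, and 1 was higher (Tfap2a, 18.1 cpm against 4.20 cpm in the brain NSCs) and 2 lower. Wnt1Cre-mTmG Tail pNSCs had 0 higher and 2 lower. The shares of all genes called were 9.48% for Wnt1Cre-mTmG DRG pNSCs, 15.7% for Sox2-GFP lung pNSCs and 18.2% for Wnt1Cre-mTmG Tail pNSCs. Olig1 and Olig2, which drive oligodendrocyte fate with SoxE factors, were at 0 in Lung, and Olig2 held 26557 and 21643 counts in Lung-pNSC. In NCSCs it held 208 to 351 counts, against 11667 to 13276 in Wnt1Cre-mTmG brain NSCs. Against tissue, 4 factors were higher and 4 lower in Tail-pNSC, 8 and 0 in Lung-pNSC, and 7 and 0 in Sox2-GFP lung pNSCs. Of all genes, 46.4%, 55% and 56.3% were called. NCSCs against brain NSCs had 5 higher and 6 lower, Tail pNSCs against NCSCs 6 and 5, DRG pNSCs against NCSCs 6 and 3, and Tail against Lung 8 and 0. In that order, 36.9%, 37.9%, 38.3% and 43.4% of all genes were called.

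For each member, the 3 genes whose group means (log2 of cpm plus 1) followed it most closely over the 11 groups were listed, among 13275 genes. The r is Pearson's and describes 11 group means, which share libraries and depth within an experiment. Sox11 was followed by Slc9a7 (r = 0.991), Abcc4 and Gstm7. Sox12 was followed by Rhobtb3 (0.987), Dnajc19 and Ptn, a secreted growth factor, and Sox4 by Ppp2r2b (0.971), Manea and Cdk5r1, an activator of the neuronal kinase Cdk5. Of SoxD, Sox6 was followed by Faxc (0.990), Spire1 and Arnt2, Sox5 by Etfa (0.978), Pcdh19 and Slc38a3, and Sox13 by Ppp1r2 (0.964), Plekha1 and Xbp1. Of SoxE, Sox8 was followed by Dvl3 (0.989), Lrrn1 and Bcl2l13, Sox9 by Trps1 (0.972), Cntfr and Sobp, and Sox10 by Glt8d1 (0.964), Ntng1 and Tvp23a. The group means behind these values were uneven: Ptn, for example, was at 1.27 cpm in Lung and at 1429 to 3349 cpm in the NSC and pNSC groups, and Ntng1 was at 20.8 cpm in DRG NCSCs and at 4.19 cpm or less elsewhere.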

How the data were processed

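Poly-A RNA of 28 mouse samples was sequenced. The authors deposited raw counts. Per the study's methods, these came from htseq-count after HISAT2 alignment (single-end, GRCm38); the strand setting and annotation release are not given in the sources used here. The deposited counts were used without change. Each experiment was fitted with edgeR 4.0.16 in R 4.3.3 (filterByExpr, minimum count 10 and total 15, TMM scaling, quasi-likelihood test), and the 2 interactions over all samples. A call needed an adjusted p under 0.05 and a log2 fold change of 1 or more in size. Counting intervals (95%, exact) and the floor of 3 counts cover counting error only. The members and lists were chosen with earlier results of these data known. Named genes were the 9 members, the 3 genes most alike to each (Pearson r of group means reaching 10 cpm), and at most the 3 largest called changes per list and comparison. Alternatives were DESeq2 1.42.0, limma 3.58.1 on quantile-normalized log2 values, upper-quartile scaling, other filters, no fold limit, only the groups compared, a replicate block and leaving out each sample. The fits were tested on simulated data. Genome sequence was not used here; gene positions are from GENCODE vM21 and promoters from RefSeq. Some members of the marker and target lists are counted in the list totals but are not reported here by name.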

Additional observations from a re-analysis of the deposited data

Results flagged for a closer look

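For 13 values the effect of a pNSC group against the brain NSCs of its experiment differed between experiments by the interaction test (edgeR, all 28 samples, adjusted p under 0.05), and none reached an absolute log2 difference of 1. For tail, the effect in Wnt1Cre-mTmG mice minus that in the first experiment was 0.68 for Sox4, 0.65 for Sox11, 0.65 for Sox12, 0.72 for Sox5, 0.42 for Sox6, -0.97 for Sox13, 0.65 for Sox8 and 0.58 for Sox9. In the fit over 28 samples, the 2 effects had opposite signs with an adjusted p under 0.05 each for Sox8, Sox5, Sox6 and Sox13: Sox8 was 0.18 in the Wnt1Cre-mTmG mice and -0.47 in the first experiment, Sox5 was 0.17 and -0.56, and Sox6 was 0.25 and -0.17. Sox13 was -0.67 and 0.29. The signs were also opposite for Sox4 (0.62 and -0.060), Sox12 (0.55 and -0.11) and Sox9 (0.55 and -0.031), where the second value had an adjusted p above 0.05. For lung, the effect in Sox2-GFP mice minus that in the first experiment was -0.89 for Sox4, 0.60 for Sox11, -0.73 for Sox5, -0.51 for Sox8 and -0.98 for Sox9. Sox9 was lower in both experiments, by a log2 fold change of -1.44 in Sox2-GFP lung pNSCs and -0.46 in Lung-pNSC in the same fit, and Sox4 was at -1.13 and -0.23. The signs were opposite for Sox5 (-0.11 and 0.62) and Sox8 (-0.22 and 0.30), with an adjusted p under 0.05 each, and for Sox11 (0.51 and -0.088), where the second value had an adjusted p above 0.05. Reporter, line, age and experiment cannot be told apart in these differences.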

How the results depend on the processing

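Of 1670 fold changes refitted under alternatives, 1628 kept their direction and their side of the threshold, 6 lost the call, 28 gained it and 8 changed sign. Sox4 in Tail against Lung changed sign with DESeq2 (-0.0471) and with a mean count of at least 100 (-0.0509), and leaving out 1 sample moved it between -0.0309 (without Lung replicate 2) and 0.0676. With limma on quantile-normalized values, Sox5 in Tail-pNSC against Tail was 0.0118, Sox10 in Lung-pNSC against Lung 0.0479 and Sox10 in Sox2-GFP lung pNSCs against Lung 1.59. Sox9 in Tail-pNSC against Brain-NSC lay between -0.106 (without Brain-NSC replicate 2) and 0.0458 (without Brain-NSC replicate 1). The cause was not tested. Quantile normalization moved the median of all genes in Tail-pNSC against Tail from -0.16 to 0.37, and in Lung-pNSC against Lung from -0.15 to 0.38.

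With no limit on the fold change, 6 members were called in Tail-pNSC and 8 in Lung-pNSC against Brain-NSC, 9 in each of the Wnt1Cre-mTmG and Sox2-GFP pNSC groups against their brain NSCs, 9 in DRG pNSCs against NCSCs, and 8 and 5 for the tail and lung interactions. In Wnt1Cre-mTmG Tail pNSCs against brain NSCs limma called 0. The lung interaction had 2 calls with DESeq2, 2 with limma, 2 with only the groups compared, and 1 with upper-quartile scaling, no filter or a mean count of at least 100. Sox9 was called in each of these. Where there were 2 calls, the other was Sox10, whose few counts in the first experiment leave it unjudged. Leaving out 1 sample gave 0 to 1 calls in Wnt1Cre-mTmG Tail pNSCs against brain NSCs, 6 to 7 in Tail pNSCs and 5 to 6 in DRG pNSCs against NCSCs, 7 to 8 in Tail against Lung, 8 to 9 in Sox2-GFP lung pNSCs against Lung, and 0 to 1 for each interaction. The other 7 comparisons kept their counts. Without Brain-NSC replicate 1 the tail interaction had 1 call, Sox13 at -1.05. Where leaving out 1 sample gave the lung interaction 1 call, it was Sox9, as at -1.08 without Brain-NSC replicate 1. Same-numbered samples did not deviate together (all correlations under 0.1), so the numbers were not taken to pair samples; with a replicate block the counts were 0, 0, 6, 9, 8, 1, 1, 6, 6, 5, 3 and 9 over the 12 comparisons and 0 and 0 for the interactions, as without it. Depth limits Sox10 in Brain-NSC, Tail-pNSC, Lung-pNSC, Lung, Sox2-GFP lung pNSCs and Wnt1Cre-mTmG DRG pNSCs, and Sox8 in Lung.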
